A study of Mus musculus with 31 samples.

Results

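Kidney mRNA of 9 genes for endothelin, natriuretic peptide and nitric oxide signalling was followed in mice with polycystic kidney disease (PKD) given the anti-miR-17 oligonucleotide RGLS4326. The set was defined by gene symbol: Edn1, Ednra, Ednrb, Ece1, Npr1, Npr2, Npr3, Nos1 and Nos3. They are 9 of the 23509 genes counted in each library, and all 9 passed the filter on low counts that left 15185 genes. Endothelin-1, the product of Edn1, is a strong vasoconstrictor that is cut from a precursor by the converting enzyme Ece1 and acts through the receptors encoded by Ednra and Ednrb. In the kidney the type A receptor constricts vessels, while the type B receptor lies on endothelium and collecting duct, clears the peptide and promotes salt loss. Natriuretic peptides raise cyclic GMP through the receptor cyclases Npr1 and Npr2, whereas Npr3 mainly clears them. Nitric oxide, made by the synthases Nos1 (neuronal, in macula densa) and Nos3 (endothelial), raises cyclic GMP through soluble guanylyl cyclase, and all of these systems set renal blood flow, sodium handling and fibrosis.

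Whole kidneys were taken at 30 weeks of age from 31 mice. Pcy/CD1 mice are a slowly progressive, recessive model of cystic disease on the outbred CD1 background. From 5 weeks of age, 12 of them received PBS and 14 received RGLS4326 at 25 mg kg-1 by subcutaneous injection, which the protocol gives as monthly (Q4W) for 25 weeks. The labels of the PBS mice call their schedule weekly. Untreated male WT/CD1 mice, 5 in number, served for comparison, so that genotype and injections cannot be told apart in the comparison of PBS with wild type. No group analysed here received a control oligonucleotide.

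Between 14892524 and 27459962 counts fell on genes in each library. The kidney identity genes Umod, Slc34a1, Lrp2, Aqp2 and Slc12a3 were detected in every group. Levels are given as CPM, the counts-per-million value of a gene, its count over the library's total on genes after scaling by edgeR. Xist had at most 6 counts and the Y-linked gene Ddx3y at least 437 in any mouse, so all 31 carried male transcripts. The library labelled RGLS4326 mouse 9 stood apart from its group. Its ratio of Uty to Ddx3y counts, both Y-linked, was 0.580, in the range of 0.552 to 0.671 of wild type, against 0.142 to 0.265 in PBS mice and 0.209 to 0.314 in the other 13 RGLS4326 mice. Of 484 genes on which every wild-type mouse differed at least 2-fold from every PBS mouse, it lay at or beyond the nearest wild-type mouse for 69.2%, while the other RGLS4326 mice did so for 0 to 0.207%. The differences of the 9 genes between RGLS4326 and each other group are therefore given with and without this library, a check chosen after the data were seen. Whether its label is right was not tested, and RGLS4326 means and ranges include it unless stated otherwise.

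Mature sequences of the miR-17 seed family are shown because RGLS4326 was designed against them. Of 7 mouse miRNAs with this seed in RefSeq (GRCm38.p6), 4 are printed 5′ to 3′ with bases 2 to 8, the seed, in capitals. They lie at chr14:115043684-115043706 (miR-17, plus strand), chr14:115044183-115044205 (miR-20a, plus), chr5:138165787-138165807 (miR-106b, minus) and chr5:138165574-138165596 (miR-93, minus).
mmu-miR-17-5p: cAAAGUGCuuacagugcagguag
mmu-miR-20a-5p: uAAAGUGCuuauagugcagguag
mmu-miR-106b-5p: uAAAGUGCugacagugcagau
mmu-miR-93-5p: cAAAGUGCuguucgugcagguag
The longest 3′UTR among the coding transcripts of each of the 9 genes (GENCODE on GRCm38) was searched on its own strand for letters that pair with this seed. The forms GCACTTT and CACTTTA occurred in 0 of 9, and each occurred in 11.8% of 20998 genes with a 3′UTR. The shorter form CACTTT, which the longer forms contain, occurred in 1 of 9, Ece1, against 37.0% of all genes. That match lies at chr4:137963342-137963347 on the plus strand, in exon 20 of 20, at base 436 of a 3′UTR of 2323 bases, and it is shown in capitals with its flanks because it is the set's 1 match.
Ece1, 3′UTR: tacatttaaaaCACTTTttttttaaaaa

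The promoter window of Edn1, the gene with the largest difference from wild type among the 9, is shown because GATA and AP-1-like letters lie close to its start site. The 300 bases, from 250 before to 50 after the RefSeq start, are chr13:42301226-42301525 on the plus strand of GRCm38.p6. Capitals mark TTATCT, which begins at base 9 counted from the start site, and GTGACTAA, which begins at base 36.
Edn1 promoter: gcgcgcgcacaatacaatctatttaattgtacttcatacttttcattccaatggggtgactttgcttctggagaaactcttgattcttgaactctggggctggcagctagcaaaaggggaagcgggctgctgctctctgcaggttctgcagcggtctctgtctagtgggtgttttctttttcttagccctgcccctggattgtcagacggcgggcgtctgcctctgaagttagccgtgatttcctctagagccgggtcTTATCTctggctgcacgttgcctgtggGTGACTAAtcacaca
AGATAA or its reverse complement TTATCT was present in 11.2% of 32851 promoter windows of this length, and GTGACTAA or TTAGTCAC in 0.630%. Windows were given for 8 of the 9 genes, 11 in all, and Edn1 alone held either motif. TATAAA or TTTATA was in 0 of the 11 and in 13.6% of all windows. Nos3 had no window. These matches describe letters only.

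Per kb of longest coding transcript, the 9 genes spanned a wide range of levels. In wild type, Ece1 at 22.8 ± 1.93 CPM per kb (SD, n = 5) and Npr2 at 20.8 ± 1.33 were highest, and their ranges over mice overlapped. Npr1 (7.25 ± 0.637) and Ednrb (6.50 ± 1.52) followed and overlapped each other, but neither reached the pair above. Nos3 (2.09 ± 0.198) and Npr3 (1.91 ± 0.485) overlapped, as did Edn1 (0.943 ± 0.114) and Ednra (0.839 ± 0.260), and Nos1 was lowest at 0.0507 ± 0.0136. In PBS mice the order changed mainly at Edn1, which rose to the fourth place at 4.25 ± 1.83 CPM per kb, and at Ednrb, which dropped to 2.82 ± 1.02. The ranges of Npr1, Edn1, Npr3, Nos3, Ednrb and Ednra each overlapped the next in that order, so it is not resolved there. In RGLS4326 mice Npr2 (22.3 ± 2.78), Ece1 (17.9 ± 1.82) and Npr1 (7.18 ± 1.20) led, and Edn1, Ednrb, Npr3 and Nos3, from 3.32 to 2.63 CPM per kb, overlapped in turn.

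**Figure D1:**
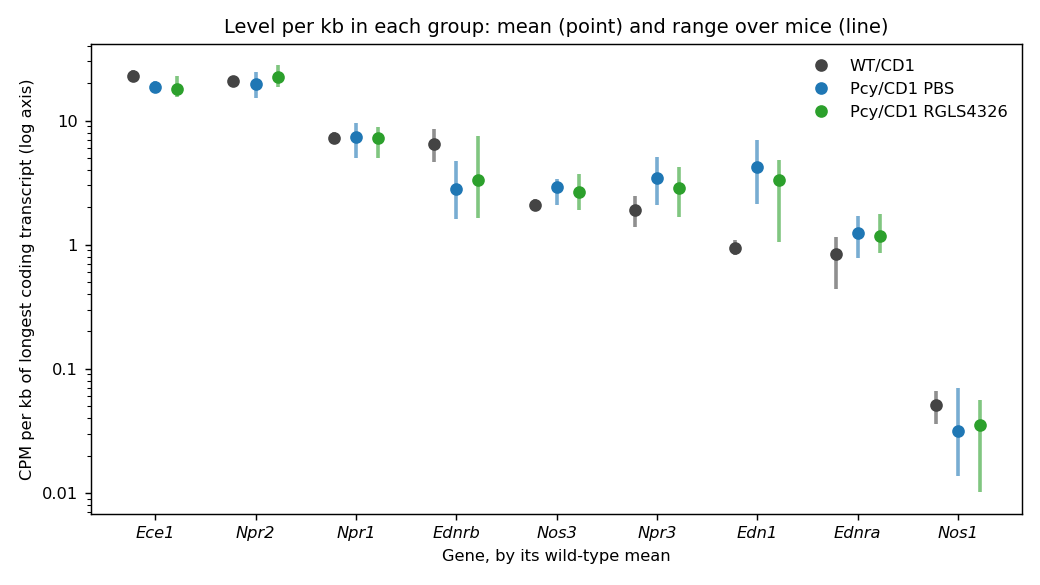
Level of each gene in CPM per kb of its longest coding transcript (vertical log axis) in WT/CD1, PBS and RGLS4326 mice, with points for means and lines for the range over mice. Ece1 and Npr2 lie at the top in each group and Nos1 at the bottom, and the mean of Edn1 lies below that of Ednrb in wild type and above it in PBS and RGLS4326 mice.

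Compared with wild type, PBS-treated Pcy/CD1 kidneys had more mRNA of the ligand Edn1, of the type A receptor Ednra, of the clearance receptor Npr3 and of the endothelial synthase Nos3, and less of the type B receptor Ednrb and the converting enzyme Ece1. Changes were tested by edgeR (quasi-likelihood, p-values adjusted by Benjamini-Hochberg over all 15185 genes), and a call means an adjusted p under 0.05. In this comparison 6 of the 9 genes were called, 4 higher and 2 lower, against a background of 74.3% of all genes called, 37.7% higher and 36.6% lower. With the added requirement of an absolute log2 fold change over 0.5, 4 of 9 were called against 42.4% of all genes. Groups did not overlap for 1 of 9 genes, Edn1, while they did not for 42.2% of all genes. The count of calls among the 9 was thus not above the background. The median log2 fold change was 0.02 over the 9 and 0.01 over all genes.

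RGLS4326 against PBS gave 1 call among the 9, a higher Npr2, where 15.8% of all genes were called, 9.15% higher and 6.66% lower. No gene of the set passed with the size requirement, against 2.15% of all genes, and 2 of 9, Npr2 and Npr3, had an unadjusted p under 0.05, as did 5595 of all 15185 genes. Without the library labelled RGLS4326 mouse 9, 0 of 9 were called by edgeR and 8.14% of all genes were. RGLS4326 against wild type gave 6 calls, 4 higher (Edn1, Ednra, Npr3 and Nos3) and 2 lower (Ednrb and Ece1), where 64.9% of all genes were called, 32.5% higher and 32.4% lower. With the size requirement 3 of 9 were called against 31.5% of all genes. Without mouse 9, 6 of 9 were called against 67.5%. The 3 comparisons share mice, so they are not independent of one another. The median log2 fold change of the 9 was -0.06 for RGLS4326 against PBS, against -0.0043 over all genes, and 0.10 for RGLS4326 against wild type, against 0.0037.

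**Figure D2:**
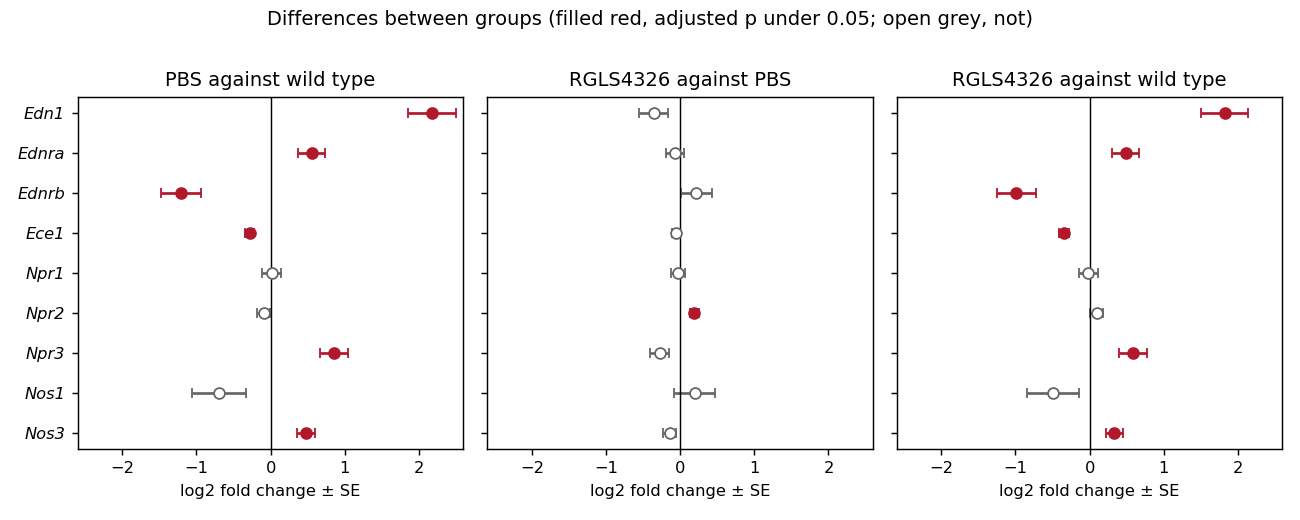
Log2 fold change with its standard error (horizontal axis) of each gene in PBS against wild type, RGLS4326 against PBS and RGLS4326 against wild type, with filled red points for an adjusted p under 0.05. Each comparison with wild type has 4 genes called higher and 2 lower, and the treatment comparison has 1 small called difference, Npr2 at 0.19.

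How libraries are scaled moved these counts. Scaling used trimmed means of M values (TMM), whose factors were 0.818 to 0.854 in wild type, 1.004 to 1.16 in PBS and 0.890 to 1.08 in RGLS4326 mice. In PBS against wild type TMM gave 5721 genes higher and 5560 lower, upper-quartile scaling 6978 and 4336, and library totals alone 9513 and 2373. For RGLS4326 against PBS the splits were 1390 and 1012, 1006 and 1378, and 551 and 4132, and for RGLS4326 against wild type 4938 and 4923, 6179 and 3704, and 8448 and 2079. The median of all genes in PBS against wild type shifted from 0.01 to 0.13 with upper quartile and to 0.38 with library totals. In RGLS4326 against PBS it lay at -0.12 with library totals, and in RGLS4326 against wild type at 0.26. All fold changes that follow use TMM, and a gene whose direction depends on that is named as such.

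Edn1, at chr13:42301476-42307990 on the plus strand with 5 exons, showed the largest difference of the set. Wild-type mice 1 to 5 had 1.89, 2.20, 1.77, 1.88 and 2.35 CPM, from 30 to 39 counts each. The lowest, median and highest of the 12 PBS mice were 4.54, 8.10 and 14.8 CPM. RGLS4326 mice had 2.25, 7.57 and 10.4 CPM. Each PBS mouse lay above each wild-type mouse, and so did 13 of 14 RGLS4326 mice, the exception being mouse 9, which held the 2.25. Means were 2.02 ± 0.244 (SD, n = 5), 9.09 ± 3.91 (n = 12) and 7.11 ± 2.15 CPM (n = 14). PBS exceeded wild type by 2.17 ± 0.32 (SE) on the log2 scale, 4.51-fold, with an edgeR adjusted p of 6.9e-07. Wild type had no mouse near the PBS range, whereas PBS mice themselves spread widely, with a coefficient of variation of 43.0% against 12.1% in wild type. RGLS4326 exceeded wild type by 1.82 ± 0.31 (adjusted p = 1.6e-05), and by 1.90 ± 0.28 (adjusted p = 1.3e-06) without mouse 9, when the groups no longer overlapped, as for 33.4% of all genes. Between RGLS4326 and PBS the log2 difference was -0.35 ± 0.20 (edgeR adjusted p = 0.19), and -0.28 ± 0.18 without mouse 9 (adjusted p = 0.27). That difference did not pass the test. Library names in the deposited data fell into 3 numbered series whose meaning was not stated, with 4, 4 and 4 PBS mice, 4, 5 and 5 RGLS4326 mice and 2, 2 and 1 wild-type mice. RGLS4326 mouse 9 was in series 2, and all values within series 2 include it. Within series 1, 2 and 3, Edn1 in PBS exceeded wild type by 2.06, 2.26 and 2.12, and RGLS4326 differed from PBS by 0.01, -0.44 and -0.60.

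Markers of tubular injury and of proximal tubule moved with Edn1 most closely, among 8 of 9 lists that passed. All 4 injury markers (Lcn2, Havcr1, Krt20 and Vcam1) rose in PBS against wild type. Krt20, at a mean of 0.167 CPM in wild type, was kept by the low-count filter only through the Pcy/CD1 groups, so its call carries little weight. Their summed level was 13.7 to 38.1 CPM in wild type, 327 to 1383 in PBS mice and 23.6 to 824 in RGLS4326 mice, the lowest of these again being mouse 9. All 6 proximal tubule markers fell in PBS, and their sum was 14430 to 15530 CPM in wild type, 4313 to 8760 in PBS and 5682 to 13310 in RGLS4326 mice. No marker of either list was at 0 in any group. Over the 26 Pcy/CD1 mice, after removal of group means, log2(CPM + 1) of Edn1 correlated with the proximal tubule sum at r = -0.934 and rho = -0.950 and with the injury sum at r = 0.881 and rho = 0.893. Permutation p was 1e-05 for each, the smallest 100000 permutations can give, and the adjusted p of each r was 8.1e-05 over 81 relations of the 9 genes with 9 marker lists. Within the 3 series r with proximal tubule was -0.955, -0.969 and -0.927. It was -0.920 without the 2 mice whose marker sum lay farthest from the median, the 2 most distant mice in what follows for marker lists. Mice distant in the gene alone were kept. Without mouse 9 it was -0.924. With the injury sum, r was 0.944, 0.901 and 0.824 within the series, 0.875 without the 2 most distant mice and 0.885 without mouse 9. Collecting duct markers gave r = 0.688 and rho = 0.544 (permutation p = 0.00047 and 0.0063, adjusted p = 0.0022 for r), and r = 0.467 without the 2 most distant mice. In whole kidney, fewer cells of a type and less RNA per cell cannot be told apart, and the part of these cell types in the Edn1 difference was not tested.

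**Figure D3:**
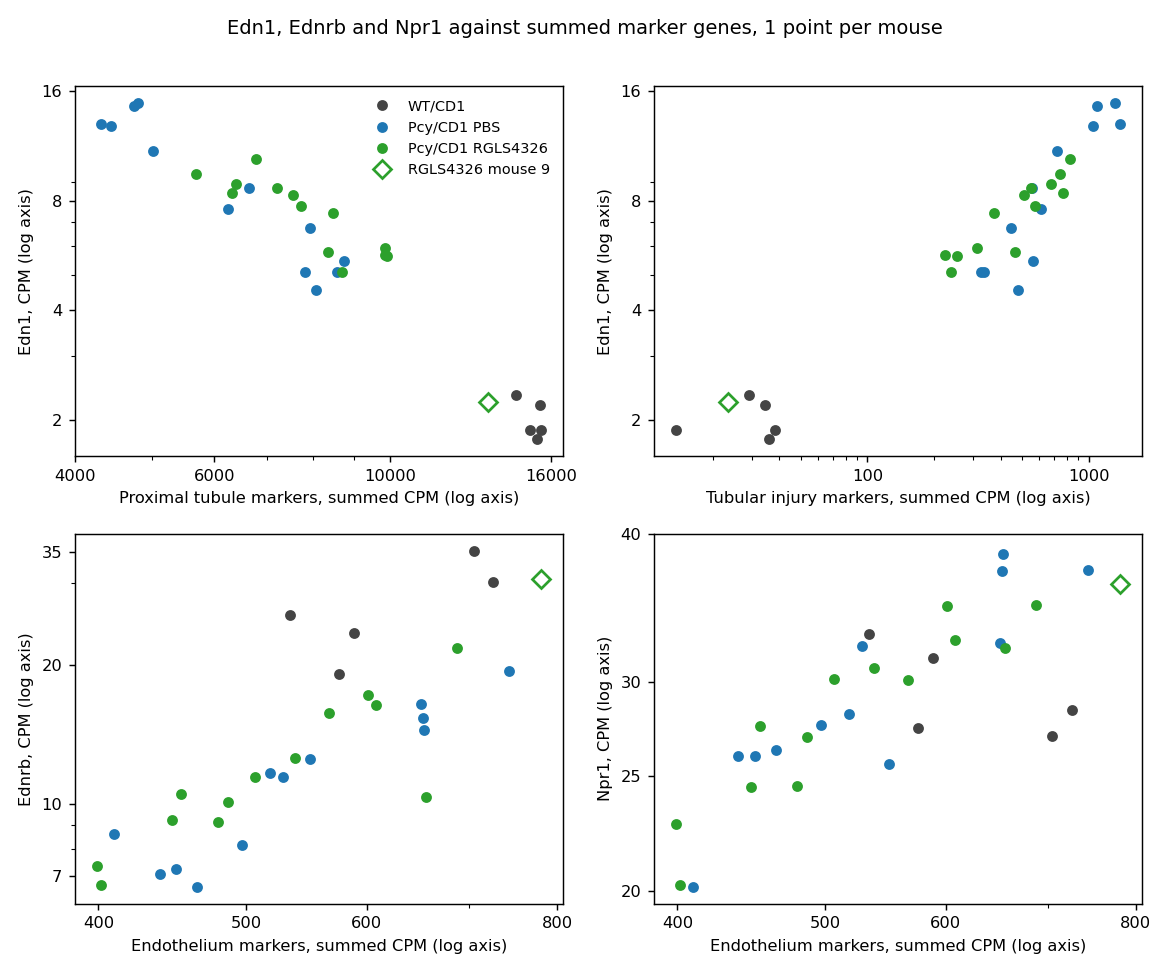
CPM of Edn1, Ednrb and Npr1 (vertical log axes) against the summed CPM of marker genes (horizontal log axes), 1 point per mouse, coloured by group, with an open diamond for the library labelled RGLS4326 mouse 9. Edn1 falls as proximal tubule markers rise and climbs with injury markers, and Ednrb and Npr1 climb with endothelial markers in Pcy/CD1 mice.

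The endothelin receptors moved in opposite directions. Ednrb, at chr14:103814625-103844402 on the minus strand, stood at 19.1, 25.6, 30.2, 35.3 and 23.4 CPM in wild-type mice 1 to 5. The lowest, median and highest PBS values were 6.61, 11.6 and 19.4 CPM. Corresponding RGLS4326 values were 6.69, 10.97 and 30.6 CPM. Below every wild-type mouse lay 11 of 12 PBS mice, PBS mouse 11 being the exception, and 12 of 14 RGLS4326 mice, with mouse 9 the highest. PBS was lower by a log2 fold change of -1.21 ± 0.27 (edgeR adjusted p = 0.00018), 0.433-fold. For RGLS4326 against wild type it was -0.99 ± 0.26 (adjusted p = 0.0016), and -1.14 without mouse 9 (adjusted p = 8.6e-05). RGLS4326 differed from PBS by 0.22 ± 0.21 (adjusted p = 0.45), and by 0.07 without mouse 9 (adjusted p = 0.83). Within the series the difference of PBS from wild type was -0.80, -1.51 and -1.12.

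Ednra, at chr8:77663031-77724464 on the minus strand, was at 2.89, 1.60, 4.20, 3.39 and 3.13 CPM in wild-type mice 1 to 5, from 27 to 71 counts. PBS mice had a lowest value of 2.83, a median of 4.27 and a highest of 6.18 CPM. RGLS4326 mice had 3.13, 4.35 and 6.43 CPM. The groups overlapped, with 8 of 12 PBS mice and 8 of 14 RGLS4326 mice above the highest wild-type mouse. PBS exceeded wild type by 0.55 ± 0.18 (edgeR adjusted p = 0.0072) and RGLS4326 by 0.48 ± 0.18 (adjusted p = 0.018). The latter call was lost without wild-type mouse 2, the lowest, when the difference was 0.33 (adjusted p = 0.10), and it held without mouse 9 at 0.52 (adjusted p = 0.011). RGLS4326 and PBS differed by -0.07 ± 0.13 (adjusted p = 0.71), and by -0.04 without mouse 9 (adjusted p = 0.85). Within the series PBS exceeded wild type by 1.11, 0.22 and 0.44, and RGLS4326 differed from wild type by 1.101, -0.08 and 0.55, so series 2 did not show the treated difference. Fibroblast markers moved with Ednra, at r = 0.687 and rho = 0.689 over the 26 Pcy/CD1 mice (permutation p = 0.00011 and 0.00013, adjusted p = 0.00064 for r). It was 0.668, 0.659 and 0.821 within the series, 0.695 without the 2 most distant mice and 0.766 without mouse 9. Their sum was 94.4 to 157 CPM in wild type, 462 to 995 in PBS and 167 to 1008 in RGLS4326 mice, with 4 of 6 markers higher, 0 lower and none at 0 in PBS against wild type. Ednra also passed with smooth muscle and pericyte (r = 0.672), podocyte (0.658), macrophage (0.614) and endothelial markers (0.475). The part of these cells in the Ednra difference was not tested.

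The ratio of Ednrb to Ednra per kb was 8.41 ± 3.43 in wild type, with a range of 5.84 to 14.1. In PBS mice it was 2.29 ± 0.681, from 1.41 to 3.39, and in RGLS4326 mice 2.94 ± 1.77, from 1.42 to 8.53. The 8.53 was the library labelled RGLS4326 mouse 9, without which the ratio was 2.51 ± 0.774, from 1.42 to 4.03, with no overlap with wild type. Every PBS mouse therefore lay below every wild-type mouse. Ednrb moved with endothelial, tubular injury, proximal tubule and collecting duct markers, and its correlation with the endothelial sum over the 26 Pcy/CD1 mice was r = 0.912 and rho = 0.902 (permutation p = 1e-05, adjusted p = 8.1e-05 for r). It was 0.751, 0.962 and 0.967 within the series, 0.878 without the 2 most distant mice and 0.895 without mouse 9. The endothelial sum itself was 534 to 727 CPM in wild type, 410 to 744 in PBS and 399 to 781 in RGLS4326 mice. Of its 14 markers 3 rose, 4 fell and 7 did not pass in PBS against wild type, and none was at 0 in any group. With the injury sum, described above, Ednrb correlated at r = -0.799 and rho = -0.825 (permutation p = 1e-05 for each, adjusted p = 8.1e-05 for r), at -0.915, -0.911 and -0.726 within the series, at -0.730 without the 2 most distant mice and at -0.756 without mouse 9. With proximal tubule r was 0.651 (adjusted p = 0.0022) and with collecting duct principal cells -0.615 (adjusted p = 0.0050), which were 0.536 and -0.375 without the 2 most distant mice. The part of these cells in the Ednrb difference was not tested.

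Ece1, at chr4:137862237-137965229 on the plus strand, had 123, 99.1, 113, 110 and 103 CPM in wild-type mice 1 to 5. PBS values had a lowest of 82.5, a median of 90.4 and a highest of 99.7 CPM. In RGLS4326 mice these were 74.2, 85.7 and 110 CPM. Below every wild-type mouse lay 11 of 12 PBS mice and 13 of 14 RGLS4326 mice, mouse 9 being the exception in the latter. With TMM, PBS was lower by -0.28 ± 0.064 in log2 (edgeR adjusted p = 0.00024) and RGLS4326 by -0.34 ± 0.063 (adjusted p = 3.1e-05), but with library totals alone the PBS difference turned to 0.09 (adjusted p = 0.29) and the RGLS4326 difference shrank to -0.09 (adjusted p = 0.28). Relative to the median of all genes the PBS difference was -0.29 with upper quartile and -0.29 with library totals. Subtracting the median removes a shift common to all genes, so this does not test the direction. RGLS4326 differed from PBS by -0.06 ± 0.048 (adjusted p = 0.36), and by -0.18 with library totals alone, which passed (adjusted p = 0.022). That scaling moved all genes, and relative to their median the difference was -0.06 with TMM and with library totals. Without mouse 9, RGLS4326 differed from PBS by -0.09 (adjusted p = 0.13) and from wild type by -0.37 (adjusted p = 7.2e-07). Within the series, PBS differed from wild type by -0.31, -0.31 and -0.15.

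**Figure D4:**
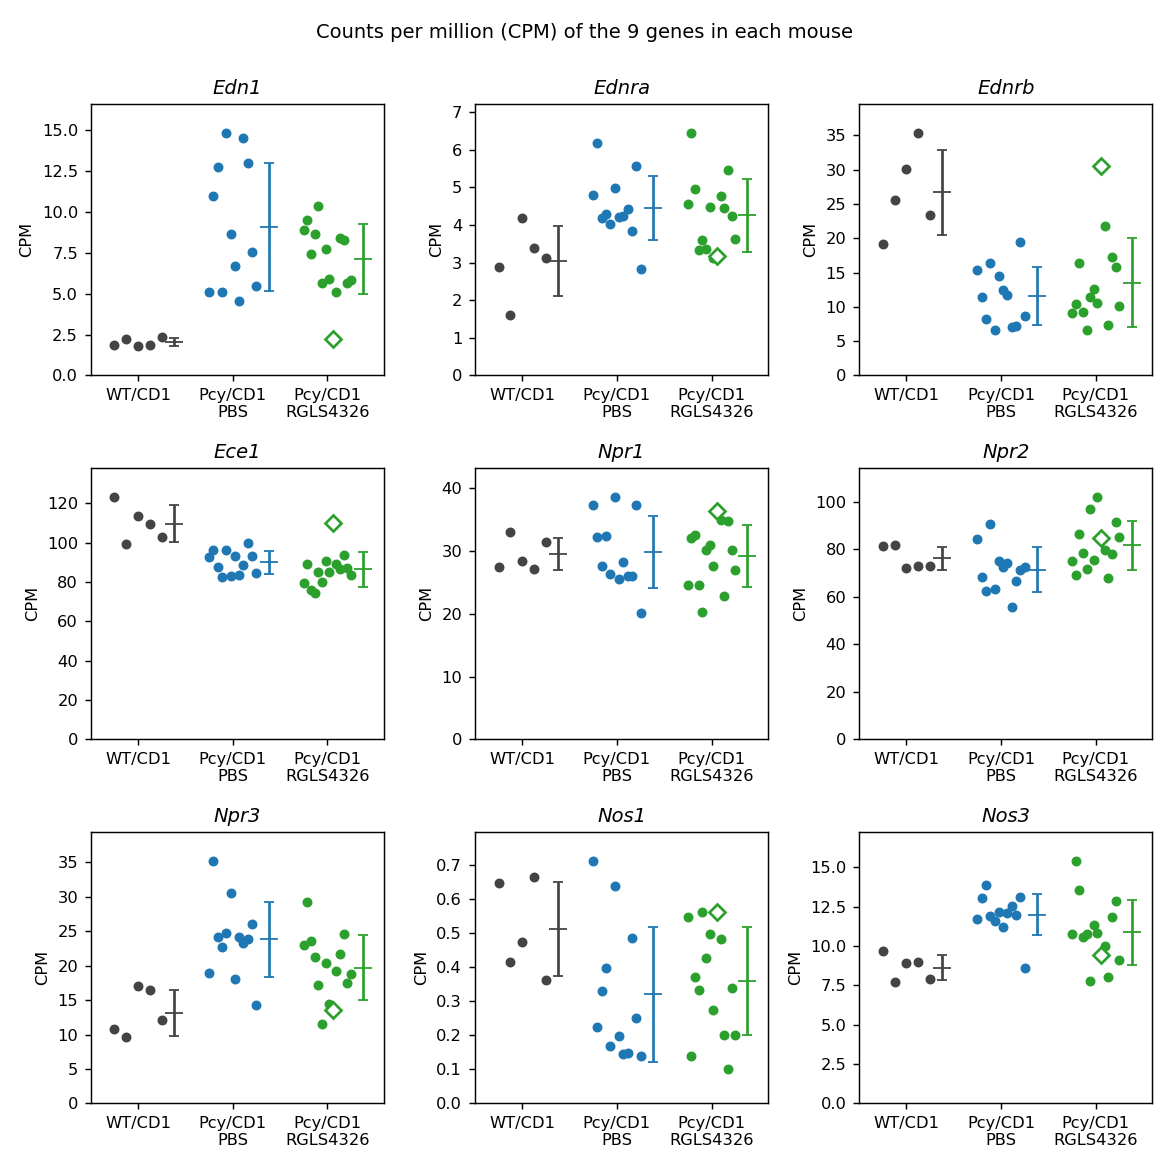
CPM (vertical axes, from 0) of the 9 genes in each of 5 WT/CD1, 12 PBS and 14 RGLS4326 mice, with bars for the mean ± SD of each group and an open diamond for the library labelled RGLS4326 mouse 9. Edn1 is the gene whose wild-type and PBS mice do not overlap. The diamond lies in the wild-type range of every gene but Npr1 and Npr2, where it lies above.

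Of the natriuretic peptide receptors, the clearance receptor rose in cystic kidneys while neither cyclase receptor passed the test against wild type. Npr3, at chr15:11839896-11907287 on the minus strand, was at 10.7, 9.62, 16.97, 16.4 and 12.04 CPM in wild-type mice 1 to 5. PBS mice had 14.3, 24.0 and 35.1 CPM as lowest, median and highest. RGLS4326 mice had 11.5, 19.8 and 29.3 CPM. Above every wild-type mouse lay 11 of 12 PBS mice and 11 of 14 RGLS4326 mice. PBS exceeded wild type by 0.86 ± 0.19 in log2, 1.81-fold (edgeR adjusted p = 0.00016), and RGLS4326 did so by 0.58 ± 0.18 (adjusted p = 0.0063), or 0.62 without mouse 9 (adjusted p = 0.0031). RGLS4326 was at -0.27 ± 0.13 against PBS, with an unadjusted p of 0.043 and an adjusted p of 0.12, and at -0.24 without mouse 9 (adjusted p = 0.19). Within the series PBS exceeded wild type by 1.31, 0.57 and 0.88, and RGLS4326 differed from wild type by 1.25, -0.10 and 0.78.

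Npr3 is made by podocytes and vascular cells, among others. Per 100 CPM of summed podocyte markers, Npr3 was 4.51 ± 0.221 CPM in wild type, 7.31 ± 0.906 in PBS and 6.56 ± 1.14 in RGLS4326 mice, and no PBS mouse (5.22 to 8.77) was within the wild-type range of 4.26 to 4.71. The podocyte sum was 208 to 360, 245 to 426 and 242 to 375 CPM in the groups, with 4 of its 8 markers higher, 0 lower and none at 0 in PBS against wild type. Vascular smooth muscle and pericyte markers summed to 176 to 228, 209 to 510 and 249 to 478 CPM, with 5 of 9 higher, 2 lower and none at 0. No ratio of Npr3 to this sum was taken, so the separation above holds for podocyte markers only. Over the 26 Pcy/CD1 mice Npr3 correlated with the smooth muscle sum at r = 0.799 and rho = 0.753 (permutation p = 1e-05 and 2e-05) and with the podocyte sum at r = 0.768 and rho = 0.773 (2e-05 and 1e-05). Within the series these r were 0.662, 0.768 and 0.896, and 0.990, 0.700 and 0.583. Without the 2 most distant mice they were 0.701 and 0.715, and without mouse 9 0.805 and 0.812. Npr3 also passed with fibroblast (r = 0.785), macrophage (0.755), proximal tubule (-0.661) and injury markers (0.492). The part of these cells in the Npr3 difference was not tested.

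Npr1, the receptor for atrial and brain natriuretic peptides at chr3:90450591-90465866 on the minus strand, was at 27.5, 33.0, 28.4, 27.1 and 31.4 CPM in wild-type mice 1 to 5. PBS mice had 20.2, 27.9 and 38.5 CPM as lowest, median and highest, and RGLS4326 mice 20.3, 30.2 and 36.3. Wild type lay inside the range of both other groups. PBS differed from wild type by 0.02 ± 0.13 (edgeR adjusted p = 0.92), RGLS4326 from wild type by -0.02 ± 0.12 (adjusted p = 0.92) and RGLS4326 from PBS by -0.03 ± 0.093 (adjusted p = 0.82). With library totals alone the first was 0.38 (adjusted p = 0.0082), at the median of all genes under that scaling, and the second was 0.24, which was -0.02 relative to the median of all genes in its own comparison, as with TMM. Without mouse 9, RGLS4326 was at -0.06 against PBS (adjusted p = 0.68) and at -0.04 against wild type (adjusted p = 0.78). Mice within each Pcy/CD1 group nevertheless spread more than wild type, with a coefficient of variation of 19.2% in PBS, 16.8% in RGLS4326 and 8.78% in wild-type mice. Npr1 tracked the endothelial sum at r = 0.909 and rho = 0.908 over the 26 Pcy/CD1 mice (permutation p = 1e-05 for each), at 0.890, 0.859 and 0.951 within the series, at 0.902 without the 2 most distant mice and at 0.909 without mouse 9. Podocyte (r = 0.537), injury (-0.494) and collecting duct markers (-0.465) passed as well, though r with podocyte markers was -0.025, 0.629 and 0.768 within the series. The ratio of Npr1 to Npr3 per kb was 4.04 ± 1.26 in wild type, 2.18 ± 0.464 in PBS and 2.67 ± 0.904 in RGLS4326 mice.

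Npr2, the receptor for C-type natriuretic peptide at chr4:43631935-43651244 on the plus strand, was the gene called between RGLS4326 and PBS. Wild-type mice 1 to 5 had 81.3, 82.0, 72.3, 73.1 and 72.9 CPM. PBS mice had a lowest of 55.7, a median of 71.8 and a highest of 90.6 CPM, and RGLS4326 mice 68.1, 79.2 and 102. The groups overlapped widely, with 3 of 14 RGLS4326 mice above every PBS mouse. Means were 76.3 ± 4.86 (n = 5), 71.4 ± 9.48 (n = 12) and 81.7 ± 10.2 CPM (n = 14), and RGLS4326 exceeded PBS by 0.19 ± 0.066 in log2, 1.14-fold (edgeR adjusted p = 0.045). The call was lost in 13 of 26 fits that left out 1 Pcy/CD1 mouse, namely PBS mouse 2, 3, 5, 9, 10 or 11 or RGLS4326 mouse 3, 6, 8, 9, 10, 13 or 14, at adjusted p from 0.053 to 0.088 and differences from 0.16 to 0.20. Without mouse 9 it was 0.19 (adjusted p = 0.067). It was also lost with upper-quartile scaling (0.16, adjusted p = 0.060) and library totals alone (0.08, adjusted p = 0.19). These scalings moved all genes, and relative to their median the difference was 0.20 with TMM and with both of these. Within the series RGLS4326 differed from PBS by 0.02, 0.27 and 0.27. Against wild type neither Pcy/CD1 group passed, PBS being at -0.10 ± 0.089 (adjusted p = 0.33) and RGLS4326 at 0.10 ± 0.088 (adjusted p = 0.33), or 0.10 without mouse 9 (adjusted p = 0.34). The sign and the calls moved with the shift of all genes under other scalings. Upper quartile turned PBS against wild type to 0.02 (adjusted p = 0.80) and library totals to 0.27, which passed (adjusted p = 0.00065), and RGLS4326 against wild type passed with both, at 0.19 (adjusted p = 0.045) and 0.35 (adjusted p = 4.6e-05). Relative to the median of all genes, PBS against wild type was -0.11 with TMM, upper quartile and library totals alike, and RGLS4326 against wild type was 0.09 with each. A change of scaling shifts all genes almost alike, so this agreement is near fixed in advance and does not test the direction. Npr2 correlated with the proximal tubule sum at r = 0.776 and rho = 0.806 over the 26 mice (permutation p = 1e-05 and 2e-05), at 0.968, 0.650 and 0.750 within the series, at 0.839 without the 2 most distant mice and at 0.824 without mouse 9. It also passed with injury (r = -0.593), macrophage (-0.555), collecting duct (-0.550) and thick ascending limb markers (0.549). The part of these cells in the Npr2 difference was not tested.

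The endothelial synthase rose in cystic kidneys. Nos3, at chr5:24364810-24384474 on the plus strand with 26 exons, had 9.67, 7.72, 8.93, 8.96 and 7.89 CPM in wild-type mice 1 to 5. PBS mice had 8.58, 12.05 and 13.9 CPM as lowest, median and highest. RGLS4326 mice had 7.78, 10.8 and 15.4 CPM. Above every wild-type mouse lay 11 of 12 PBS mice, the exception being PBS mouse 12, and 10 of 14 RGLS4326 mice. PBS exceeded wild type by 0.47 ± 0.12 in log2 (edgeR adjusted p = 0.00076) and RGLS4326 did so by 0.33 ± 0.12 (adjusted p = 0.014), or by 0.35 without mouse 9 (adjusted p = 0.0097). RGLS4326 and PBS differed by -0.14 ± 0.085 (adjusted p = 0.23), and by -0.12 without mouse 9 (adjusted p = 0.32). Within the series PBS exceeded wild type by 0.54, 0.41 and 0.57, and RGLS4326 did so by 0.53, 0.18 and 0.41. Nos3 overlaps the opposite-strand gene Atg9b, which was counted too at 0.478, 1.04 and 0.791 CPM in the 3 groups. Counting by strand is not given in the sources used here, so that reads from both genes may be uncertain.

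Nos3 was also set against endothelial markers. Per 100 CPM of endothelial markers it was 1.39 ± 0.181 CPM in wild type, 2.25 ± 0.404 in PBS and 2.05 ± 0.411 in RGLS4326 mice, and its range in PBS, 1.76 to 2.85, lay above that of wild type, 1.23 to 1.68. Its correlation with the endothelial sum over the 26 Pcy/CD1 mice was r = 0.360 (permutation p = 0.082, adjusted p = 0.15) and rho = 0.294 (permutation p = 0.16). It was 0.363, -0.179 and 0.608 within the series, 0.468 without the 2 most distant mice and 0.478 without mouse 9, so it differed in sign between series. With the smooth muscle and pericyte sum r was 0.781 and rho 0.705 (permutation p = 1e-05 and 8e-05), with 0.815, 0.544 and 0.761 within the series, 0.636 without the 2 most distant mice and 0.777 without mouse 9. Podocyte (r = 0.598), fibroblast (0.580) and macrophage markers (0.534) passed too. The part of these cells in the Nos3 difference was not tested.

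Nos1, at chr5:117781032-117958840 on the plus strand, had 6 to 11 counts in wild type, 3 to 15 in PBS and 2 to 14 in RGLS4326 mice, so its values carry a large counting error. Its means were 0.513 ± 0.138, 0.320 ± 0.198 and 0.360 ± 0.159 CPM, with overlapping groups. PBS was at -0.69 ± 0.36 against wild type (edgeR adjusted p = 0.084), RGLS4326 at -0.50 ± 0.35 (adjusted p = 0.22) and RGLS4326 against PBS at 0.20 ± 0.28 (adjusted p = 0.62). The first passed without PBS mouse 1 (-0.83, adjusted p = 0.034) or PBS mouse 6 (-0.84, adjusted p = 0.035). Without mouse 9, RGLS4326 was at -0.55 against wild type (adjusted p = 0.17) and at 0.14 against PBS (adjusted p = 0.75). Macula densa and thick ascending limb markers summed to 5461 to 6829, 4170 to 6207 and 4967 to 6777 CPM, with 1 of 5 higher, 1 lower and none at 0 in PBS against wild type, and their r with Nos1 over the 26 Pcy/CD1 mice was 0.090 (permutation p = 0.67). Collecting duct principal cells were the list that passed with Nos1, at r = -0.513 and rho = -0.530 (permutation p = 0.0065 and 0.0073, adjusted p = 0.017 for r), at -0.592, -0.464 and -0.174 within the series and at -0.508 without the 2 most distant mice.

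Other genes of the pathways were taken from 4 lists. Endothelin peptides and peptidases held 5 genes, of which 4 were tested and Edn2, at or near 0, was not. In PBS against wild type, where 37.7% of all genes were called higher and 36.6% lower, 2 rose, Edn3 and Kel, and 1 fell. The median log2 fold change was 0.67 against 0.01 over all genes. Without Kel, whose limit is given below, the middle value was that of Ece2, 0.20. Edn3, a ligand of the type B receptor, rose from 5.98 ± 1.39 CPM in wild type (n = 5) to 13.2 ± 1.56 in PBS (n = 12) and was 11.4 ± 1.86 in RGLS4326 mice (n = 14). Its log2 fold change was 1.14 ± 0.13 in PBS against wild type (edgeR adjusted p = 2.5e-08) and -0.21 ± 0.090 in RGLS4326 against PBS (adjusted p = 0.093), or -0.16 without mouse 9 (adjusted p = 0.14), and the latter passed with library totals alone (-0.31, adjusted p = 0.029). Kel, which can cleave big endothelin-3, was at 0 to 0.355 CPM in wild type and was kept by the low-count filter only through the Pcy/CD1 groups, so its difference of 1.19 ± 0.49 (adjusted p = 0.030) carries little weight. Mme, the peptide-degrading enzyme neprilysin of proximal tubule and podocytes, fell by 0.63 on the log2 scale (adjusted p = 5.9e-05), and Ece2 was at 0.20 (adjusted p = 0.060). In RGLS4326 against PBS, where 15.8% of all genes were called, 0 of 4 passed, with a median of -0.15.

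Among natriuretic peptides and their processing enzymes, Nppa, Nppb and Ostn were too low to test, and 4 of 7 genes were tested. In PBS against wild type 1 rose, Nppc, and 3 fell, where 37.7% of all genes were called higher and 36.6% lower, with a median of -0.44. Without Nppc, whose limit is given below, the middle value was that of Furin, -0.55. Furin, a protease that activates many precursors, fell by 0.55 on the log2 scale (edgeR adjusted p = 2.5e-08), from 345 ± 16.3 to 235 ± 17.2 CPM. Corin, the protease that activates atrial natriuretic peptide, fell by 1.18 (adjusted p = 4.7e-05), from 6.44 ± 2.44 to 2.85 ± 0.929 CPM. Pcsk6, a protease that activates Corin, was the other that fell, named after its values were seen, at -0.34 (adjusted p = 0.046), and it did not pass with upper quartile (-0.22, adjusted p = 0.18) or library totals (0.03, adjusted p = 0.87). Under these scalings the median of all genes was itself at 0.13 and 0.38. Nppc, the precursor of the Npr2 ligand, was at 0 to 0.0605 CPM in wild type and was kept by the low-count filter only through the Pcy/CD1 groups, so its call carries little weight. It passed upward (adjusted p = 0.0010) from 0.0239 ± 0.0327 CPM in wild type to 0.736 ± 0.591 in PBS, and was 0.337 ± 0.377 in RGLS4326 mice (adjusted p = 0.11 against PBS, and 0.16 without mouse 9). In RGLS4326 against PBS 0 of 4 passed beside the same 15.8%, with a median of 0.10.

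All 20 genes of nitric oxide synthesis, its cofactors, substrate and regulators were tested, and 10 rose and 6 fell in PBS against wild type, with a median of 0.39. These are 16 of 20, beside 74.3% of all genes. Cav1, whose product restrains Nos3, rose by 0.74 ± 0.092 (edgeR adjusted p = 5.8e-08), and Slc7a1, an arginine importer, by 1.46 ± 0.21 (adjusted p = 5.5e-07). Asl, which makes arginine, fell by 0.91 on the log2 scale (adjusted p = 3.2e-07). Enzymes that break down the synthase inhibitor dimethylarginine split, as Ddah1 fell by 0.78 (adjusted p = 1.0e-05), from 427 ± 90.2 to 248 ± 51.8 CPM, and Ddah2 rose by 1.53 ± 0.22 (adjusted p = 3.9e-07), from 16.5 ± 1.02 to 47.7 ± 14.3 CPM. RGLS4326 against PBS had 2 calls higher, among them Ddah1 (0.33, adjusted p = 0.038), and 2 lower, Slc7a1 (-0.53, adjusted p = 0.021) and Ddah2 (-0.44, adjusted p = 0.039). These are 4 of 20, beside 15.8% of all genes. Both comparisons share the PBS mice. Without mouse 9, 1 of 20 passed, Slc7a1 (adjusted p = 0.031), beside 8.14% of all genes.

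Of 19 genes of cyclic GMP synthesis, effectors and breakdown, 17 were tested, and 12 rose and 1 fell in PBS against wild type, with a median of 0.59. These are 13 of 17, beside 74.3% of all genes. Gucy1a3, a subunit of soluble guanylyl cyclase, rose by 1.14 ± 0.20 (edgeR adjusted p = 6.6e-06), from 14.1 ± 2.596 to 31.2 ± 7.67 CPM. Pde1a, a cyclic nucleotide phosphodiesterase, rose by 0.59 ± 0.081 (adjusted p = 2.3e-07) and Pde1b by 0.53 ± 0.14 (adjusted p = 0.0011). Vasp, a substrate of cyclic GMP-dependent kinase, rose by 0.83 ± 0.11 (adjusted p = 2.5e-07) and was the 1 of 17 called in RGLS4326 against PBS, beside 15.8% of all genes, lower by -0.24 ± 0.080 (adjusted p = 0.041), which did not pass without mouse 9 (adjusted p = 0.066). Pde9a, a cyclic GMP phosphodiesterase, was the gene that fell, by 0.41 on the log2 scale (adjusted p = 0.0015), and was named after its values were seen. It did not pass with library totals alone (-0.05, adjusted p = 0.58), when 15 genes of the list rose and 0 fell. Under that scaling the median of all genes was itself at 0.38, with 9513 genes higher and 2373 lower. In RGLS4326 against wild type, where 64.9% of all genes were called, or 67.5% without mouse 9, 8 of these 17 rose and 1 fell, or 10 and 1 without mouse 9. The nitric oxide list had 10 and 7 with and without mouse 9. The natriuretic list had 1 and 2, or 1 and 3 without it, and the endothelin list 1 and 1, or 2 and 1. These last 2 lists include Nppc and Kel, with the limit given for each above.

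The 9 genes varied together in part across Pcy/CD1 mice. Over 26 mice, with group means removed, 9 of 36 pairs had an adjusted p under 0.05 in a two-sided permutation test, 7 with positive and 2 with negative r. Ednrb and Npr1 correlated at r = 0.821 and rho = 0.849 (permutation p = 1e-05, adjusted p = 0.00018 for r), and Ednra and Npr3 at r = 0.813 and rho = 0.746 (permutation p = 1e-05, adjusted p = 0.00018). Within the series, r was 0.816, 0.792 and 0.872 for the former and 0.694, 0.830 and 0.872 for the latter. Without the 2 most distant mice they were 0.802 and 0.727, and without mouse 9 0.822 and 0.796. For pairs, distance was taken in the gene that comes first in the list of 9, so mice distant in the other gene alone were kept.

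Edn1 ran against Ednrb at r = -0.715 and rho = -0.709 (permutation p = 5e-05, adjusted p = 0.00054) and against Npr2 at r = -0.700 and rho = -0.773 (permutation p = 6e-05, adjusted p = 0.00054). Within the series these r were -0.852, -0.851 and -0.501, and -0.954, -0.504 and -0.767. Without the 2 most distant mice they were -0.649 and -0.808, and without mouse 9 -0.617 and -0.778. Nos3 correlated with Npr3 at r = 0.659 and rho = 0.576 (adjusted p = 0.0030) and with Ednra at r = 0.656 and rho = 0.590 (adjusted p = 0.0040), which fell to 0.464 and 0.449 without the 2 most distant mice. The remaining 3 pairs that passed were Edn1 with Npr3 (r = 0.541), Ednra with Npr1 (r = 0.540) and Ednrb with Npr2 (r = 0.516). Edn1 with Npr3 did not pass without mouse 9, when 8 pairs did. No pair with Ece1 or Nos1 passed. All genes of a mouse share 1 library and its depth, and the shared cell-type markers described above were not removed.

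**Figure D5:**
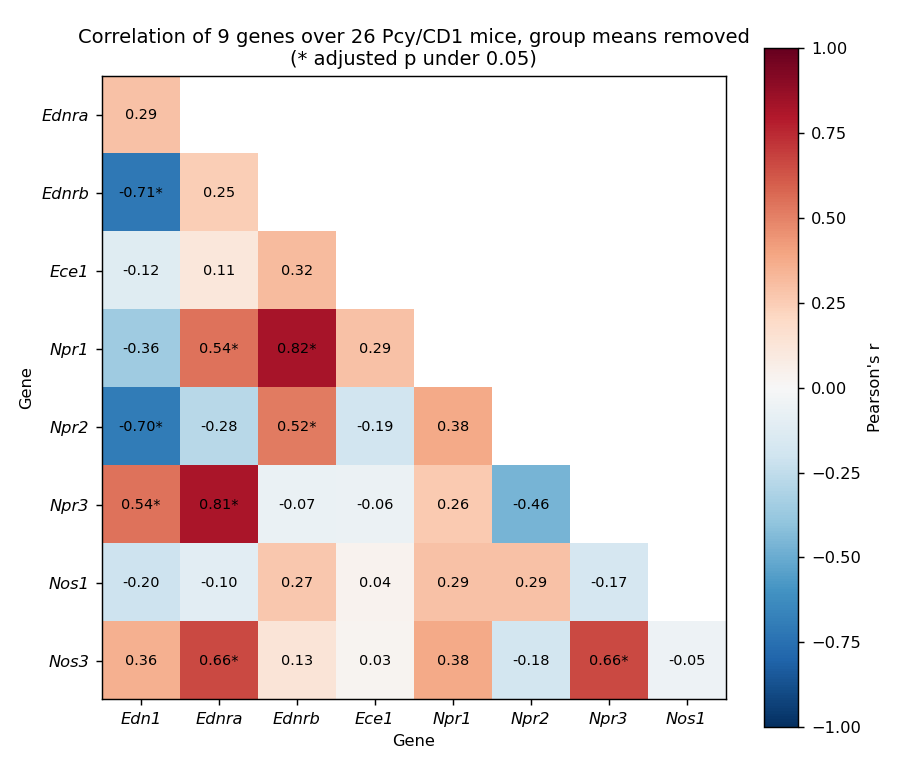
Pearson's r of log2(CPM + 1) for each of 36 pairs of the 9 genes over 26 Pcy/CD1 mice with group means removed, on a colour scale from -1 to 1, with an asterisk for an adjusted p under 0.05. Ednrb with Npr1 and Ednra with Npr3 are the strongest positive pairs, and Edn1 is negative with Ednrb and Npr2.

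By the same measure, and as a description over 26 mice and 11523 genes averaging 5 CPM or more, the genes most like Edn1 were Stra6 (r = 0.961), Stat3 (0.951) and Itpr3 (0.951). Those most like Ednrb were Cd300lg (r = 0.957), Epas1 (0.954) and Tek (0.933), and those most like Npr1 were Arap3 (0.906), Mmrn2 (0.895) and Pde2a (0.885). For Npr3 they were Piezo2 (r = 0.928), Slc7a2 (0.921) and Myadm (0.909), and for Npr2 Slc22a26 (0.893), Tchh (0.872) and Cbs (0.872). Slc7a2 belongs to the nitric oxide list and Pde2a to the cyclic GMP list above, and Tek to the endothelial markers. Ednra had Serping1 (r = 0.868), Grap (0.865) and Gpc6 (0.862), and Nos3 had Ccnd2 (0.790), Sparcl1 (0.775) and Pkn3 (0.769). Likeness was lower for Nos1, with Camk2g (r = 0.758), Hira (0.722) and Xrn2 (0.692), and for Ece1, with Tmem246 (0.728), Unc45a (0.718) and Sox13 (0.697). For Ece1 these rested partly on mouse 9, without which they were 0.489, 0.575 and 0.564, while for the other 8 genes r without it stayed at or above 0.704.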

How the data were processed

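RNA was extracted from flash-frozen kidneys, and poly(A) libraries were made with a stranded mRNA kit and sequenced as paired reads of 75 bases on a NextSeq instrument. Per the labels, the authors trimmed reads with Trim Galore, aligned them with STAR to GRCm38 and deposited raw counts per gene from HTSeq 0.6.1, 1 file per mouse. The strand setting of the counting is not given in the sources used here. Rows that name no gene were left out of library sizes: 8.39 to 10.1% of all rows' reads had no feature, 0.305 to 0.411% were ambiguous and 17.8 to 21.2% did not align uniquely. The groups came from the labels. Counts were tested with edgeR 4.0.16 in R 4.3.3 (filterByExpr, TMM, 1 coefficient per group, all 31 mice, quasi-likelihood test, Benjamini-Hochberg adjustment over 15185 genes), with standard errors taken as the absolute log2 fold change over the square root of F. Separate mice were the replicates. Of all pairs within a group, wild-type mice 3 and 4 differed least, with a chi-square of 2.56 per gene over 12792 genes, above sampling noise, and were both kept. Pairs across groups were not compared in this way. Correlations used log2(CPM + 1) less the group mean over the 26 Pcy/CD1 mice, with 100000 permutations within group.

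The 9 genes, the pathway and cell type lists and the tests were chosen with earlier results of these data known. Named genes were all 9 members, of each pathway list the 3 genes with the smallest p in PBS against wild type and the 2 in RGLS4326 against PBS, and the 3 genes most correlated with each member. On counts simulated for 15185 genes, the test called 85 of 100 genes changed by 1 on the log2 scale and 96 of 100 changed by 2 in PBS against wild type, and 94 and 98 of 100 in RGLS4326 against PBS. Unchanged genes called were 15 and 6 in the same order. Smaller changes, such as those of the 9 genes between RGLS4326 and PBS, were not simulated. Counting error is set by the depth, which is 2 to 15 counts per mouse for Nos1. Alternatives were DESeq2 1.42.0, other scalings, filters, covariates and samples. Replicate numbers did not pair PBS with RGLS4326 mice. Promoters and miRNAs came from RefSeq tables (GRCm38.p6), gene models from GENCODE vM21, and figures from matplotlib 3.10.9. The values of a few listed genes are not reported here.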

Additional observations from a re-analysis of the deposited data

How the results depend on the processing

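In PBS against wild type 6 of 9 genes were called, with 6 to 7 when 1 mouse was left out. Within name series 1 and 2, each with 2 wild-type mice, 6 and 3 were called, beside 7905 of 15222 and 6918 of 15188 genes. Series 3 had 1 wild-type mouse, so no calls against wild type are counted there. In RGLS4326 against PBS the count was 1, with 0 to 1 when 1 mouse was left out. It was 0 with no filter on low counts (1720 of 19698 genes called), with upper-quartile scaling (2384 of 15185) and with only the 2 groups compared (1480 of 14687, 8 of the 9 genes being tested). It was also 0 within each name series, where 0 of all genes were called, so these counts say nothing particular to the 9. With the added threshold of 0.5 on the log2 fold change it was 0 too, beside 2.15% of all genes. In RGLS4326 against wild type it was 6, with 5 to 6 when 1 mouse was left out and 3 with the added threshold. Within series 1 it was 6, where 7195 of 15222 genes were called. Within series 2, which holds the library labelled RGLS4326 mouse 9, it was 0, where 392 of 15188 genes were called. The cause of these shifts was not tested. The DESeq2 Wald test and size factors in place of TMM left the 3 counts at 6, 1 and 6, and between 8 and 10 of the 36 pairs of genes passed under the alternatives.

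With the replicate block, 0 of 9 genes passed in RGLS4326 against PBS and Npr2 was at 0.17 (adjusted p = 0.11). Over all genes the block gave 303 calls in place of 2402. The 12 same-numbered pairs of PBS and RGLS4326 mice correlated at -0.0554 on average, from -0.416 to 0.435, and 4 were over 0.1, so the samples share only a number.

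Reversed directions were all in differences that had not passed, except Ece1, Ednra and Npr3. With library totals alone, an alternative added after the data were seen, Ece1 and Npr2 in PBS against wild type turned to 0.088 and 0.27 and Npr1 in RGLS4326 against wild type to 0.24. Relative to the median of all genes, which that scaling moved too, these were -0.29, -0.11 and -0.02, on the same side as with TMM. Subtracting that median removes a shift common to all genes, so this does not test the direction. Upper quartile turned Npr2 in PBS against wild type to 0.024 and Npr1 in RGLS4326 against wild type to 0.075 (-0.11 and -0.02 relative to the median), and a filter at a mean of 1 CPM turned the latter to 0.015. The replicate block turned Npr1 in PBS against wild type to -0.023. Series 1 turned Edn1, Ednrb and Nos1 in RGLS4326 against PBS to 0.014, -0.18 and -0.19 and Npr2 in RGLS4326 against wild type to -0.077. Series 2 turned Ece1 in RGLS4326 against PBS to 0.019 and, in RGLS4326 against wild type, Ednra to -0.082, Npr1 to 0.080 and Npr3 to -0.10. Series 3 turned Npr1 in PBS against wild type to -0.18 and, in RGLS4326 against PBS, Ednra to 0.11, Npr1 to 0.12 and Nos1 to -0.011. Leaving out 1 mouse moved Npr1 between -0.023 and 0.063 in PBS against wild type, between -0.073 and 0.0076 in RGLS4326 against PBS and between -0.044 and 0.032 in RGLS4326 against wild type. Of 905 single-gene values under alternatives, 819 kept their direction and side of the threshold. Depth limits Nos1, with 2 to 15 counts per mouse, more than the other 8 genes.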

Other observations

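Marker genes of 3 further cell types are given by their counts. In PBS against wild type, where 37.7% of all genes were called higher, all 7 collecting duct principal cell markers were called higher, with a median log2 fold change of 1.55 against 0.01 over all genes, and their sum was 551 to 915 CPM in wild type, 1586 to 3239 in PBS and 864 to 2278 in RGLS4326 mice. In RGLS4326 against PBS, where 6.66% of all genes were called lower, 6 of these 7 were, with a median of -0.39, and 6 of 7 without mouse 9, when 8.14% of all genes were called in either direction. All 6 macrophage markers were called higher in PBS against wild type (median 2.20), and 0 of 6 passed in RGLS4326 against PBS (median -0.10), while without mouse 9 Emr1 was called higher (adjusted p = 0.033). Their sum was 159 to 172 CPM in wild type, 318 to 519 in PBS and 154 to 617 in RGLS4326 mice. Of the 6 fibroblast markers 4 were called higher in PBS against wild type (median 1.80), and 0 in RGLS4326 against PBS (median -0.18). Fibroblast sums were 94.4 to 157, 462 to 995 and 167 to 1008 CPM. The lowest RGLS4326 sum of each of these 3 lists was in the library labelled RGLS4326 mouse 9.

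Among the 81 relations of the 9 genes with 9 marker lists over 26 Pcy/CD1 mice, 37 had an adjusted p under 0.05 in the permutation test, 25 positive and 12 negative. Edn1 correlated with the macrophage sum at r = 0.767 and rho = 0.742 (permutation p = 1e-05 and 3e-05), and Npr3 with the fibroblast sum at r = 0.785 and rho = 0.848 (permutation p = 1e-05 for each). Edn1 and macrophage markers gave r = 0.774, 0.859 and 0.574 within the 3 name series, 0.694 without the 2 most distant mice and 0.660 without mouse 9. Npr3 and fibroblast markers gave r = 0.885, 0.671 and 0.894 within the series, 0.874 without the 2 most distant mice and 0.900 without mouse 9. Ece1 passed with 0 of the 9 lists, which were added after the data were seen.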
